A study of Mus musculus with 48 samples.

Results

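Cardiomyocytes of PLNR9C mice were compared with cardiomyocytes of wild type mice, both given vehicle. The comparison rests on 6 RNA-seq libraries, 3 per genotype, of the 48 libraries in the series, chosen by their labels as the vehicle-treated cardiomyocyte libraries of the cell fraction table. All genes with enough reads were compared, which left 14142 genes of the 31741 in that table. The 48 libraries form 16 groups: cardiomyocytes and non-myocytes at 16 weeks and ventricles at 8 and 20 weeks, each from PLNR9C or wild type mice. The mice were given vehicle or 50 mg/kg of JQ1, which blocks BET bromodomain proteins.

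The PLNR9C vehicle cardiomyocytes and the wild type vehicle cardiomyocytes both came from FVB mice aged 16 weeks, and the labels give every cell fraction sample, wild type included, the disease stage DCM (dilated cardiomyopathy). Each library was made from total RNA of pooled cells. How many animals went into a pool is not given, so the p-values measure the spread between these pools, which the design text calls individual biologic replicates. The labels give no promoter, copy number or line for the mutant allele.

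Phospholamban is a small protein of the sarcoplasmic reticulum that holds back the calcium pump of heart muscle until it is phosphorylated, and PLNR9C is a mutant form linked to dilated cardiomyopathy. Each heartbeat depends on calcium that leaves the reticulum through ryanodine receptors and returns through that pump, and the energy for it comes mostly from burning fatty acids in mitochondria. Failing heart muscle is known to take up part of its fetal gene programme, to lower its fatty acid oxidation genes and to raise stress response genes.

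These libraries held between 10249780 and 12520846 reads in genes. Rank correlations of log counts within a genotype were 0.973 to 0.992, against 0.929 to 0.971 between genotypes. The labelled cell type was checked on its markers. Myh6 (the adult ventricular myosin heavy chain of mice) averaged 20100 CPM (read counts scaled to a TMM-adjusted library size) in PLNR9C and 38015 CPM in wild type cardiomyocytes. In the PLNR9C and wild type non-myocyte libraries it averaged 463 and 1047 CPM. Here and below, cardiomyocyte CPM are scaled within the 12 cardiomyocyte libraries and non-myocyte CPM within the 24 cell fraction libraries. CPM of the cell fractions printed side by side are therefore not on one scale. Tnnt2 (cardiac troponin T) averaged 3822 and 4808 CPM, and Actc1 (cardiac actin) 16513 and 13331 CPM, in PLNR9C and wild type cardiomyocytes, and neither was called (adjusted p = 0.207 and 0.231, edgeR quasi-likelihood test). With the 6 vehicle libraries fitted alone both passed, Tnnt2 with a log2 fold change of -0.32 (adjusted p = 0.0173) and Actc1 with 0.32 (adjusted p = 0.0265). The 12 cardiomyocyte markers summed to 64595, 70421 and 75363 CPM in PLNR9C libraries and to 95999, 92286 and 100664 CPM in wild type libraries. Over those markers 5 fell and none rose, and 3 fell without PLNR9C replicate 1.

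Transcripts of other cell types were also present, and the amounts for some of these types moved with genotype. The 13 fibroblast markers tested summed to 1323, 1112 and 1281 CPM in PLNR9C and to 456, 552 and 457 CPM in wild type cardiomyocytes, a 2.54-fold difference in means. The macrophage markers summed to 367, 292 and 349 CPM in PLNR9C and to 56.7, 70.1 and 54.9 CPM in wild type, 5.55-fold. Both sums separated the genotypes without overlap. Endothelial markers went the other way, with 888, 969 and 943 CPM in PLNR9C and 1153, 1454 and 1422 CPM in wild type. Smooth muscle and pericyte markers summed to 669, 648 and 847 CPM in PLNR9C and to 395, 430 and 429 CPM in wild type, with a median log2 fold change of -0.07 over 12 members, of which 2 rose (Acta2 and Cspg4) and 1 fell. Acta2, smooth muscle actin, alone had 329, 369 and 463 CPM in PLNR9C and 107, 108 and 103 CPM in wild type, which is most of the difference between these sums. Acta2 and Cspg4 each had a higher mean in PLNR9C cardiomyocytes than in PLNR9C non-myocytes, so the sum need not follow carried-over cells. The lymphocyte, neutrophil, red cell and adipocyte markers each summed to at most 5.65 CPM in every library.

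Set against the vehicle non-myocyte libraries of the same genotype, the summed fibroblast markers stood at 10.4% of their non-myocyte level in PLNR9C and at 4.43% in wild type cardiomyocytes, and the summed macrophage markers at 10.5% and 5.11%. In PLNR9C every fibroblast marker lay between 8.22% and 12%, and every macrophage marker between 8.42% and 22.2%. This percentage is given below beside each gene group that holds non-myocyte genes. It takes both levels from the scale of the 24 cell fraction libraries, so it differs from the ratio of the printed CPM. In such bulk RNA, fewer cells of a type and less RNA per cell cannot be told apart.

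In PLNR9C cardiomyocytes 2021 genes rose and 1667 fell, 14.3% and 11.8% of the genes tested (adjusted p under 0.05, edgeR quasi-likelihood test with Benjamini-Hochberg adjustment over all genes tested). At least 2-fold, 1050 rose and 439 fell. The median log2 fold change over all genes was 0.00. Of the genes that rose, 1996 were above every wild type library in all PLNR9C libraries, and of those that fell 1652 were below, where 24.4% and 23.1% of all tested genes separated in that way.

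**Figure D1:**
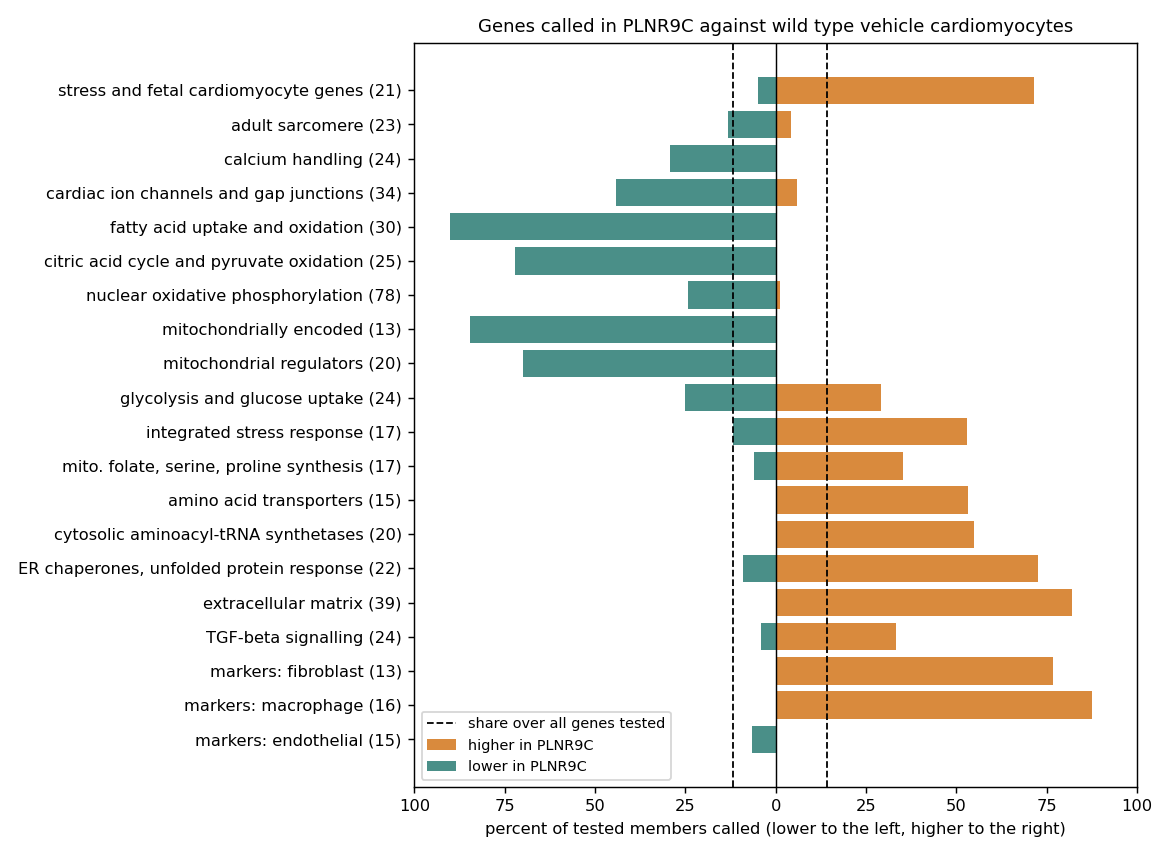
Percent of the tested members of each gene list called higher (right) or lower (left) in PLNR9C against wild type vehicle cardiomyocytes, with the number tested in brackets. Dashed lines mark the share over all genes tested, 14.3% higher and 11.8% lower. Fatty acid oxidation, citric acid cycle and mitochondrially encoded genes lie to the left, and stress, chaperone, matrix and macrophage genes to the right.

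Pln, which encodes phospholamban, had 2002, 1936 and 1617 CPM in PLNR9C and 3432, 3316 and 3265 CPM in wild type libraries. All PLNR9C libraries were below all wild type libraries, and Pln fell (log2 fold change -0.85 ± 0.15, SE, adjusted p = 0.00132). The counts do not separate mutant from wild type transcripts. Its partner Atp2a2, the calcium pump that phospholamban inhibits, had 9641, 10599 and 9380 CPM in PLNR9C and 19654, 19306 and 20061 CPM in wild type, and fell to a mean level 0.502 of wild type (log2 -0.99 ± 0.17, adjusted p = 0.00119). The pump and its inhibitor were thus both lower, with no overlap between genotypes.

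Among 24 calcium handling genes 7 fell and none rose, with a median log2 fold change of -0.07. Ryr2, the release channel of the sarcoplasmic reticulum, had 1889, 2090 and 2441 CPM in PLNR9C and 4071, 3910 and 4658 CPM in wild type (log2 -0.98 ± 0.19, adjusted p = 0.00268). Hrc, a calcium-binding protein of the reticulum, fell by 0.96 ± 0.17 on the log2 scale. The other named members that fell were Itpr2, an inositol trisphosphate receptor (-1.12 ± 0.18), and Jph2, which tethers the reticulum to the cell membrane (-0.63 ± 0.16). Casq2, the calcium store protein of the reticulum, had 609, 696 and 751 CPM in PLNR9C and 666, 649 and 582 CPM in wild type and was not called (log2 0.12 ± 0.15, adjusted p = 0.606). Sln, another inhibitor of the pump found mostly in atria, was low in all libraries, at 1.61 to 6.35 CPM in PLNR9C and 1.77 to 4.47 CPM in wild type. The decrease thus took in the pump, its inhibitor and the release channel, while the store protein overlapped between genotypes.

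**Figure D2:**
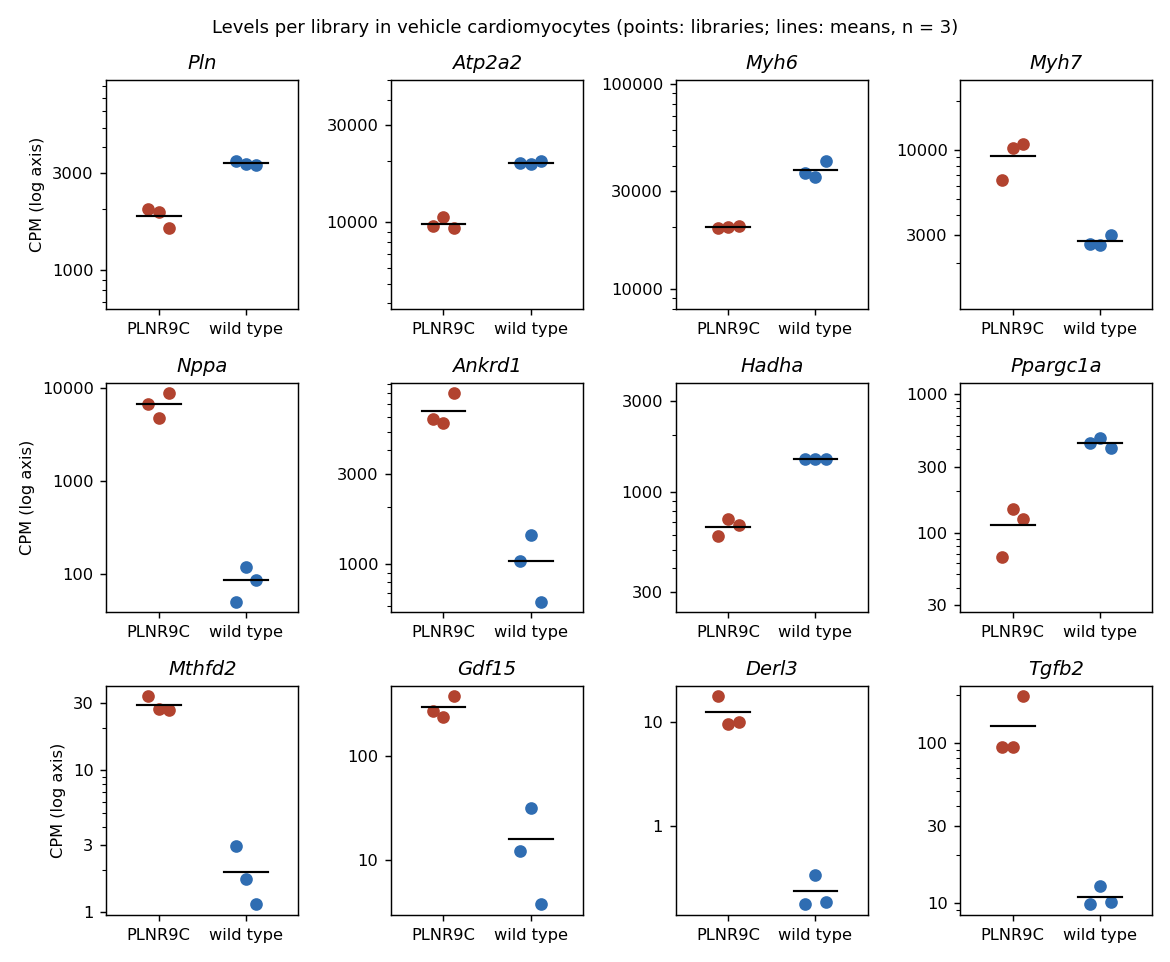
CPM of 12 genes in the 3 PLNR9C libraries (left, red) and the 3 wild type libraries (right, blue) of vehicle cardiomyocytes, on log axes. Points are libraries and lines are means. In all 12 panels the genotypes do not overlap: Pln, Atp2a2, Myh6, Hadha and Ppargc1a are lower in PLNR9C, and Myh7, Nppa, Ankrd1, Mthfd2, Gdf15, Derl3 and Tgfb2 are higher.

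The stress and fetal genes of heart muscle held the largest single rise among called genes with at least 10 CPM in the higher group. Of 21 tested, 15 rose and 1 fell, with a median log2 fold change of 1.87. Nppa, atrial natriuretic peptide, had 6632, 4785 and 8794 CPM in PLNR9C and 50.8, 119 and 87.2 CPM in wild type libraries. The lowest PLNR9C library was far above the highest wild type library, and the rise was 78.7-fold (log2 6.30 ± 0.49, adjusted p = 1.39e-05). Its relative Nppb, brain natriuretic peptide, had 494, 576 and 1078 CPM in PLNR9C and 149, 211 and 59.1 CPM in wild type (log2 2.36 ± 0.64, adjusted p = 0.02). The Nppb call was lost without PLNR9C replicate 3 (adjusted p = 0.0647), wild type replicate 1 (0.0589) or wild type replicate 3 (0.0718), with a log2 fold change of 1.94 to 2.4 in those fits. Without a filter on low counts it was lost too (adjusted p = 0.0643).

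The myosin heavy chains moved in opposite directions. Myh7, the fetal and slow isoform in mice, had 6485, 10256 and 10839 CPM in PLNR9C and 2645, 2614 and 2996 CPM in wild type (log2 1.74 ± 0.18, adjusted p = 4.32e-05). Myh6 had 19916, 20131 and 20251 CPM in PLNR9C and 36875, 35150 and 42022 CPM in wild type (log2 -0.92 ± 0.18, adjusted p = 0.00285). On the deposited per-length scale, Myh7 averaged 1195 ± 253 RPKM in PLNR9C and 326 ± 18.4 RPKM in wild type, and Myh6 3546 ± 283 and 6056 ± 440 RPKM (SD, n = 3 each). Myh6 therefore remained the more abundant isoform per length in both genotypes, by a smaller margin in PLNR9C.

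Acta1, skeletal actin, had 3673, 3136 and 4249 CPM in PLNR9C and 838, 1169 and 1120 CPM in wild type (log2 1.82 ± 0.22, adjusted p = 1.16e-04). Actin genes are near-identical in their coding parts, so reads may be split among Acta1, Acta2 and Actc1. Ankrd1, a stretch-responsive sarcomere protein, had 5857, 5566 and 8036 CPM in PLNR9C and 1038, 1427 and 633 CPM in wild type (log2 2.65 ± 0.30, adjusted p = 8.66e-05). All PLNR9C libraries of both genes lay above all wild type libraries. Uchl1, a ubiquitin hydrolase better known in neurons, had 27, 22.4 and 46.3 CPM in PLNR9C and 3.19, 3.27 and 2.65 CPM in wild type (log2 3.38 ± 0.26, adjusted p = 5.21e-06). Xirp2, an actin-binding protein of the intercalated disc, had 3306, 2306 and 7053 CPM in PLNR9C and 831, 955 and 892 CPM in wild type (log2 2.24 ± 0.37). PLNR9C replicate 3 was the highest library for Nppa, Nppb, Myh7, Acta1, Ankrd1, Uchl1 and Xirp2.

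All 15 stress and fetal genes that rose had a higher mean level in PLNR9C cardiomyocytes than in PLNR9C non-myocytes. The same held for 49.8% of all genes that rose and 51.1% of all genes tested. The PLNR9C cardiomyocyte level is itself part of the rise. Nppa, for example, averaged 6737 CPM in PLNR9C cardiomyocytes and 192 CPM in PLNR9C non-myocytes. The single member that fell, Fhl2, a LIM protein of the sarcomere named here after its values were seen, had 384, 647 and 485 CPM in PLNR9C and 1371, 1218 and 1125 CPM in wild type (log2 -1.29 ± 0.22). The 23 adult sarcomere genes gave 1 rise and 3 falls, with a median log2 fold change of -0.12. The falls were near the share over all genes tested, of which 14.3% rose and 11.8% fell. Leaving out PLNR9C replicate 1 left 1 fall, leaving out PLNR9C replicate 3 left no rise, and the 6 vehicle libraries fitted alone gave 7 falls and 3 rises.

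Of 34 ion channel and gap junction genes 15 fell, 2 rose and 17 were not called, with a median log2 fold change of -0.61. Kcnv2, a modifier subunit of potassium channels, had 2.97, 7.04 and 3.65 CPM in PLNR9C and 40.2, 36.9 and 31.4 CPM in wild type (log2 -2.97 ± 0.35, adjusted p = 1.57e-04). Cacna1g, a T-type calcium channel, had 7.64, 11.7 and 6.70 CPM in PLNR9C and 54.6, 41.0 and 42.6 CPM in wild type (log2 -2.40 ± 0.24). For neither gene did any PLNR9C library reach the wild type range. Kcnj3, a subunit of the acetylcholine-gated potassium channel, fell by 2.03 ± 0.24 and Clcn1, a muscle chloride channel, by 4.43 ± 0.57 on the log2 scale, Clcn1 with only 2.5 to 4.52 CPM in the wild type libraries.

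Kcnd2, a pore subunit of the transient outward potassium current, had 21.1, 16.7 and 20.0 CPM in PLNR9C and 38.4, 36.0 and 31.5 CPM in wild type (log2 -0.87 ± 0.23, adjusted p = 0.0141), and lost its call without PLNR9C replicate 2 (adjusted p = 0.0537). The main ventricular connexin Gja1 (log2 0.27 ± 0.41, adjusted p = 0.664) and the inward rectifier Kcnj2 (-0.98 ± 0.36, adjusted p = 0.0637) were not called, and each overlapped between genotypes. Kcnj2 passed the test without wild type replicate 1 (adjusted p = 0.0313) and with DESeq2 (adjusted p = 0.0183).

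Fatty acid uptake and oxidation had the largest share of falls among the 42 lists. Of 30 genes tested 27 fell and none rose, with a median log2 fold change of -0.97, and between 24 and 26 fell when any library was left out. Hadha, the alpha subunit of the mitochondrial trifunctional protein, had 591, 723 and 672 CPM in PLNR9C and 1503, 1488 and 1505 CPM in wild type (log2 -1.18 ± 0.17, adjusted p = 3.99e-04). Cpt1b, the muscle carnitine palmitoyltransferase that admits fatty acids to mitochondria, had 474, 573 and 552 CPM in PLNR9C and 848, 868 and 904 CPM in wild type (log2 -0.71 ± 0.15). Both genes were separated between genotypes with little spread within either.

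Other enzymes of the pathway fell by similar or larger amounts. Acaa2, the thiolase of the last step, fell by 1.47 ± 0.17 on the log2 scale, Decr1, a reductase for unsaturated fatty acids, by 1.38 ± 0.17, Eci1, an isomerase for the same substrates, by 1.37 ± 0.15, and Cpt2, the inner membrane carnitine transferase, by 1.23 ± 0.15. Cd36, the fatty acid transporter of the cell membrane, had 686, 791 and 873 CPM in PLNR9C and 1194, 1242 and 1447 CPM in wild type (log2 -0.73 ± 0.14). The deepest fall was in a member of low abundance: Acsm5, a mitochondrial acyl-CoA synthetase, had 0.424, 0.934 and 1.74 CPM in PLNR9C and 8.77, 9.90 and 11.8 CPM in wild type. Cpt1a, the liver form of the carnitine enzyme, had 41.7, 42.8 and 42.2 CPM in PLNR9C and 42.1, 44 and 46.8 CPM in wild type and was not called (log2 -0.07 ± 0.19, adjusted p = 0.821). The muscle form therefore fell while the liver form overlapped between genotypes.

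**Figure D3:**
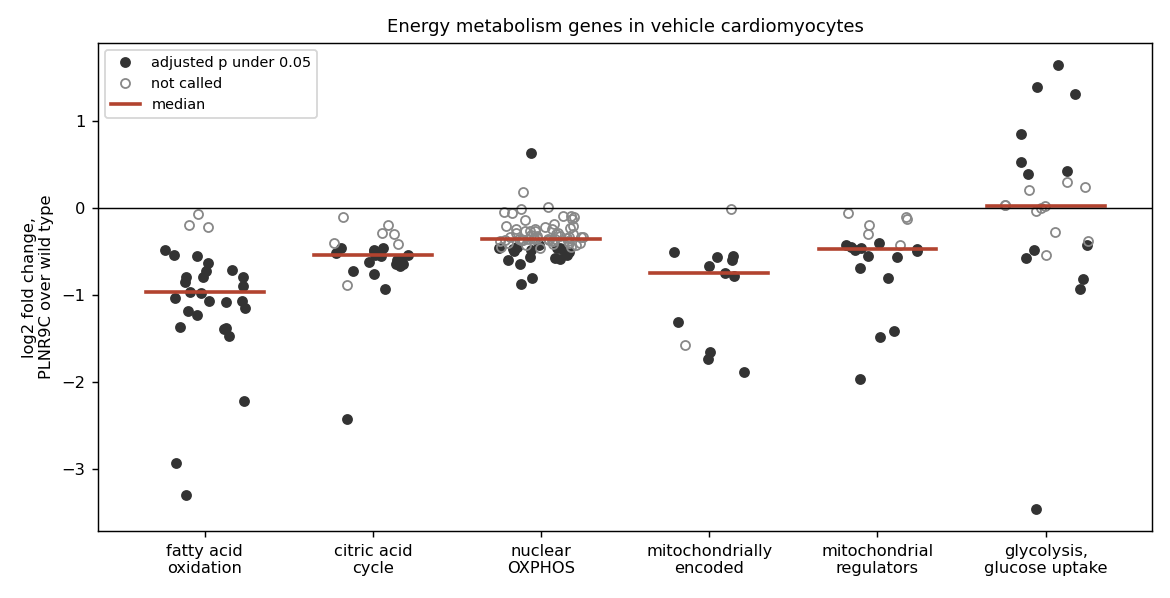
Log2 fold change of PLNR9C over wild type vehicle cardiomyocytes for every tested member of 6 energy metabolism lists, with called genes filled, other genes open and list medians as red lines. Medians run from -0.97 for fatty acid oxidation to 0.03 for glycolysis and glucose uptake, the one list with members called both ways in number.

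Regulators of mitochondrial genes were lower too. Of 20 tested 14 fell and none rose (median log2 -0.47), though only 6 fell without PLNR9C replicate 1. Ppargc1a, a coactivator that drives mitochondrial gene expression, had 66.8, 148 and 126 CPM in PLNR9C and 441, 485 and 408 CPM in wild type (log2 -1.97 ± 0.37, adjusted p = 0.00268). Ppara, the nuclear receptor that controls fatty acid oxidation genes, had 81.3, 108 and 83.7 CPM in PLNR9C and 254, 250 and 259 CPM in wild type (log2 -1.48 ± 0.17, adjusted p = 8.47e-05). Both separated the genotypes, and PLNR9C replicate 1 was the lowest for each. Klf15, a transcription factor of heart metabolism, fell by 1.41 ± 0.26, Esrrg, an oestrogen-related receptor, by 0.69 ± 0.13, Tfam, which maintains mitochondrial DNA, by 0.56 ± 0.12 and Opa1, a mitochondrial fusion protein, by 0.56 ± 0.14 on the log2 scale.

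In the citric acid cycle and pyruvate oxidation list 18 of 25 genes fell and none rose (median log2 -0.54), and 10 fell without wild type replicate 1. Idh2, mitochondrial isocitrate dehydrogenase, had 742, 1279 and 1064 CPM in PLNR9C and 1969, 1990 and 1917 CPM in wild type (log2 -0.93 ± 0.19). The succinyl-CoA ligase subunits Suclg2 (-0.76 ± 0.12) and Sucla2 (-0.72 ± 0.14) and the pyruvate carrier subunit Mpc2 (-0.66 ± 0.16) also fell. Pdk4, the kinase that shuts off pyruvate oxidation, had 460, 511 and 1032 CPM in PLNR9C and 925, 1304 and 1480 CPM in wild type and was not called (log2 -0.89 ± 0.34, adjusted p = 0.0711). For Pdk4 PLNR9C replicate 3 overlapped wild type, and without that library it passed the test (adjusted p = 0.00895) and had a log2 fold change of -1.35.

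Nuclear genes of oxidative phosphorylation shifted less per gene but in one direction. Of 78 tested 19 fell and 1 rose (median log2 -0.36). In 64 all PLNR9C libraries were below all wild type libraries, where 23.1% of all genes tested separated in that way. The count of calls depended on the libraries: 5 fell without PLNR9C replicate 1, and 49 fell when the 6 vehicle libraries were fitted alone. Sdha, the flavoprotein of complex II, had 881, 1069 and 1019 CPM in PLNR9C and 1758, 1706 and 1721 CPM in wild type (log2 -0.80 ± 0.16). Ndufs1 of complex I fell by 0.64 ± 0.14 and Cox7a1, the muscle form of a complex IV subunit, by 0.87 ± 0.18. The one member that rose was Cox8a, the widely expressed form of another complex IV subunit, with 58.1, 59.9 and 69.9 CPM in PLNR9C and 42.4, 39.8 and 38.7 CPM in wild type (log2 0.64 ± 0.12).

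Transcripts made in mitochondria were also lower. They took 11%, 8.64% and 8.96% of the reads in genes in PLNR9C and 12.8%, 12.3% and 13.2% in wild type, and 11 of the 13 genes fell. Ribosomal RNA genes took 1.56%, 2.17% and 2.71% of the reads in PLNR9C and 3.07%, 2.97% and 3.16% in wild type, also without overlap, and its part in the result was not tested. mt-Nd2, a complex I subunit, had 6764, 5992 and 6943 CPM in PLNR9C and 11633, 11067 and 11154 CPM in wild type (log2 -0.78 ± 0.13, adjusted p = 9.65e-04). mt-Nd5 fell by 0.75 ± 0.16 and mt-Nd4 by 0.57 ± 0.13 on the log2 scale. Mitochondrial genes have copies in nuclear DNA, so reads of the least abundant ones are uncertain.

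Glucose genes split by isoform. Of 24 tested 7 rose and 6 fell, with a median log2 fold change of 0.03, and 4 rose without PLNR9C replicate 3 and 4 fell without PLNR9C replicate 1. Slc2a1, the basal glucose transporter, had 38.3, 41.3 and 72.5 CPM in PLNR9C and 14.1, 20.0 and 23.8 CPM in wild type (log2 1.39 ± 0.27). Slc2a4, the insulin-responsive transporter of muscle, had 284, 348 and 281 CPM in PLNR9C and 492, 528 and 590 CPM in wild type (log2 -0.82 ± 0.17). Neither transporter overlapped between genotypes. Pfkp, the platelet form of phosphofructokinase, rose to 177, 162 and 255 CPM in PLNR9C, against 50.9, 68.7 and 70.1 CPM in wild type (log2 1.65 ± 0.23), and Eno1, the widely expressed enolase, rose by 0.85 ± 0.12. Pfkfb1, which makes the activator of phosphofructokinase in liver and muscle, fell by 3.46 ± 0.48 on the log2 scale.

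Against the non-myocyte libraries, 10 of the 30 fatty acid genes had a genotype difference that was lower in cardiomyocytes than in non-myocytes (test of the difference between fractions, where 4.24% of all genes tested were lower and 8.33% differed in either direction), among them Decr1 (-1.05 ± 0.26), Cpt2 (-0.88 ± 0.22) and Hadha (-0.86 ± 0.23). Of 29 tested in non-myocytes alone 13 fell and 2 rose, where 8.32% and 10.3% of all genes tested did. The non-myocyte libraries also held cardiomyocyte transcripts: the 12 cardiomyocyte markers had a median log2 fold change of -0.80 there, with 1 called lower. In cardiomyocytes the summed fatty acid genes stood at 635% of their non-myocyte level in PLNR9C and 749% in wild type. The part of such transcripts in the non-myocyte falls was not tested.

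Another set of genes that rose belongs to the integrated stress response, in which kinases that sense stress slow protein synthesis and let the factor Atf4 switch on amino acid genes. Of 17 tested 9 rose and 2 fell (median log2 0.66). Atf5, a factor related to Atf4, had 73.5, 79.1 and 65.7 CPM in PLNR9C and 24.9, 29.3 and 26.9 CPM in wild type (log2 1.43 ± 0.11, adjusted p = 7.62e-06). Asns, which makes asparagine, had 11.6, 8.91 and 12.3 CPM in PLNR9C and 1.77, 1.55 and 0.852 CPM in wild type (log2 2.95 ± 0.30). Trib3, a pseudokinase induced by Atf4, had 7.64, 10.1 and 11.8 CPM in PLNR9C and 2.04, 0.861 and 1.32 CPM in wild type (log2 2.80 ± 0.30). None of these genes overlapped between genotypes, though Asns and Trib3 stayed at low abundance.

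Gdf15, a secreted stress signal, had 266, 235 and 371 CPM in PLNR9C and 12.3, 31.5 and 3.79 CPM in wild type (log2 4.19 ± 0.56, adjusted p = 4.58e-04). Chac1, which degrades glutathione, rose by 1.38 ± 0.27 and Eif4ebp1, an inhibitor of cap-dependent translation, by 1.16 ± 0.20 on the log2 scale. Atf4 itself had 96.4, 115 and 191 CPM in PLNR9C and 96.0, 83.9 and 64.2 CPM in wild type (log2 0.72 ± 0.24, adjusted p = 0.0411). That call was lost without PLNR9C replicate 3 (adjusted p = 0.172), wild type replicate 2 (0.0888) or wild type replicate 3 (0.158). It was also lost without a filter on low counts (0.0662), with the replicate number as a block (0.0566) and with the 6 vehicle libraries alone (0.0996). Ddit3, the stress factor also called CHOP, was not called (log2 0.31 ± 0.18, adjusted p = 0.223) and overlapped between genotypes, though it passed without PLNR9C replicate 3 (adjusted p = 0.0285). Vldlr, a lipoprotein receptor, and Ddit4, an inhibitor of mTOR signalling named after its values were seen, were the members that fell (-0.85 ± 0.15 and -1.24 ± 0.29).

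Enzymes of mitochondrial folate, serine and proline synthesis include established Atf4 targets, and 6 of 17 rose and 1 fell. Mthfd2, a mitochondrial folate enzyme, had 33.5, 27 and 26.9 CPM in PLNR9C and 2.92, 1.72 and 1.14 CPM in wild type (log2 3.90 ± 0.24, adjusted p = 1.67e-06). Phgdh, the first enzyme of serine synthesis, had 6.03, 5.68 and 4.87 CPM in PLNR9C and 0.709, 0.602 and 0.284 CPM in wild type (log2 3.34 ± 0.32). Both rises were far larger than the spread between libraries. Psat1, the next enzyme of that pathway, rose by 1.82 ± 0.38, Pycr1 and Aldh18a1, which make proline, by 2.51 ± 0.29 and 1.62 ± 0.15, and Aldh1l2, a folate enzyme, by 1.11 ± 0.16. Shmt2, which feeds serine into the same folate pool, was level, with 32.1, 35.1 and 36.0 CPM in PLNR9C and 33.1, 33.6 and 35.9 CPM in wild type (log2 0.01 ± 0.12, adjusted p = 0.966).

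Of 15 amino acid transporters 8 rose and none fell, 5 without PLNR9C replicate 3. Slc7a5, a transporter of large neutral amino acids, had 42.6, 37.6 and 49.8 CPM in PLNR9C and 12.2, 10.8 and 15.9 CPM in wild type (log2 1.74 ± 0.15). Its heavy chain Slc3a2 rose by 0.81 ± 0.12, the cystine transporter Slc7a11 by 2.43 ± 0.47 and the glycine transporter Slc6a9 by 1.78 ± 0.34. Of 20 cytosolic aminoacyl-tRNA synthetases, which charge tRNAs with amino acids, 11 rose and none fell, by small amounts: Sars had 91.3, 84.9 and 86.2 CPM in PLNR9C and 46.9, 49.0 and 44.9 CPM in wild type (log2 0.90 ± 0.10), and Nars (0.72 ± 0.11) and Gars (0.76 ± 0.12) also rose. The median log2 fold change was 0.77 over the transporters and 0.38 over the synthetases, and the range of the transporters, -0.44 to 2.43, took in that of the synthetases, -0.10 to 0.90.

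Promoters of these genes were searched for TGATGNAA, the core of the element bound by Atf4 with its partners, on both strands of the 250 bases before the start site. It was found in 7 of 22 members called higher that have a promoter in the RefSeq table (31.8%), in 10 of 51 tested members (19.6%) and in 232 of 9407 genes tested in cardiomyocytes (2.47%). The stretches around it in 4 genes that rose are shown 5′ to 3′ on the gene's strand, so that its form can be compared, with the match in capitals (the Chac1 match is the reverse complement, and Slc7a11 holds both forms). They are RefSeq sequences of GRCm38.p6, at chr6:7693210-7693272 (minus strand) for Asns, chr2:119351009-119351096 (plus) for Chac1, chr11:120643804-120643891 (minus) for Pycr1 and chr3:50443632-50443719 (minus) for Slc7a11.
Asns: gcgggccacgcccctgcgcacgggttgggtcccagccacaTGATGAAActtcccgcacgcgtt
Chac1: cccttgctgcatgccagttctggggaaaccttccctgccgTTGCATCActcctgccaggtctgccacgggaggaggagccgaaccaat
Pycr1: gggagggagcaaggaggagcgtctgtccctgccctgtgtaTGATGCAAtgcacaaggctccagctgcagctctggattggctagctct
Slc7a11: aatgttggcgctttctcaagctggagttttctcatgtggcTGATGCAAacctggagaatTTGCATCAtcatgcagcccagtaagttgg
A match is a description of letters in this window, not a test of binding. The lists include established Atf4 targets, so a share above that of all genes goes with the choice of lists. Vldlr, which fell, holds a match as well.

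Further stress genes that rose act in the endoplasmic reticulum, where chaperones fold new membrane and secreted proteins. Of 22 chaperone and unfolded protein response genes 16 rose and 2 fell (median log2 0.67), and 14 to 16 rose when any library was left out. Derl3, which helps export misfolded proteins for degradation, had 18.0, 9.70 and 10 CPM in PLNR9C and 0.177, 0.344 and 0.189 CPM in wild type (log2 5.65 ± 0.57, adjusted p = 3.53e-05). Sdf2l1, a chaperone cofactor, had 27.6, 18.7 and 19.8 CPM in PLNR9C and 2.04, 3.10 and 1.23 CPM in wild type (log2 3.36 ± 0.30). Wild type libraries held almost no Derl3 reads, so its fold change is imprecise.

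The abundant chaperones rose by less. Hspa5, the main chaperone of the endoplasmic reticulum, had 665, 583 and 614 CPM in PLNR9C and 422, 450 and 426 CPM in wild type (log2 0.52 ± 0.11, adjusted p = 0.0045). Creld2 and Manf, secreted proteins induced by this stress, rose by 1.98 ± 0.21 and 1.54 ± 0.21, and the disulphide isomerases Pdia4 and Pdia6 by 1.80 ± 0.18 and 1.02 ± 0.13 on the log2 scale. In all of these genes the genotypes did not overlap. The members that fell, both named after their values were seen, were Herpud1, a component of the degradation machinery (-1.43 ± 0.43, adjusted p = 0.0289), and Ern1, the stress sensor also called IRE1 (-0.48 ± 0.15, adjusted p = 0.0342). Herpud1 had 112, 168 and 123 CPM in PLNR9C and 186, 273 and 632 CPM in wild type, and its call was lost without PLNR9C replicate 1 (adjusted p = 0.0868), PLNR9C replicate 3 (0.0921) or wild type replicate 3 (0.135, log2 -0.79). Herpud1 also lost its call without a filter on low counts (0.0898) and with the 6 vehicle libraries alone (0.0872). The Ern1 call was lost without any 1 of the other 5 libraries than wild type replicate 3 (adjusted p = 0.0544 to 0.16), and with the 6 vehicle libraries alone.

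The endoplasmic reticulum stress element, CCAAT and CCACG with any 9 bases between them, was found on either strand in the promoters of 7 of 14 chaperone list members called higher (50.0%), of 9 of 19 tested members (47.4%) and of 16 of 9407 genes tested (0.17%). The list was made of unfolded protein response genes, so a share above that of all genes goes with the choice of list. It is not a test of the genotype difference. Both lists were searched for both motifs: the Atf4 element was in none of those 14 promoters, and the stress element in none of the 22 promoters of the amino acid lists. The windows of 4 genes that rose are shown in the same way, from chr2:34771985-34772083 for Hspa5, chr12:17266451-17266549 for Pdia6, chr15:88819480-88819578 for Creld2 and chr10:75893202-75893300 for Derl3, all on the plus strand of GRCm38.p6. Capitals mark the element, which Creld2 and Derl3 hold as its reverse complement.
Hspa5: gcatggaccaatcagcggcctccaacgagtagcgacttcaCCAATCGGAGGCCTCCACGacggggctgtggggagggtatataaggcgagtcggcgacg
Pdia6: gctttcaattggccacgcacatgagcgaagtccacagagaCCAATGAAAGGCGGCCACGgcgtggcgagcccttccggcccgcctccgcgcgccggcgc
Creld2: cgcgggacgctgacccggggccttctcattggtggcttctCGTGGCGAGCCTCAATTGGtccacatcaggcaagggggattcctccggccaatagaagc
Derl3: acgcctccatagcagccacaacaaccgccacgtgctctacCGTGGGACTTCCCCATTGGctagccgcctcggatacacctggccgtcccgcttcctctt

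These stress genes were set against the non-myocyte libraries. The genotype difference was higher in cardiomyocytes than in non-myocytes for 7 of 17 integrated stress response genes, 4 of 17 folate, serine and proline genes and 5 of 22 chaperone genes, where 4.09% of all genes tested were. Mthfd2 averaged 8.11 CPM in PLNR9C and 6.80 CPM in wild type non-myocytes, and its difference between fractions was 3.60 ± 0.43 on the log2 scale (adjusted p = 1.89e-05). Derl3 gave 5.47 ± 0.90 and Asns 2.81 ± 0.38. In non-myocytes alone 1 of the 17 integrated stress response genes rose and 4 fell, and 1 of the 22 chaperone genes rose and 1 fell, where 10.3% of all genes tested in non-myocytes rose and 8.32% fell.

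**Figure D4:**
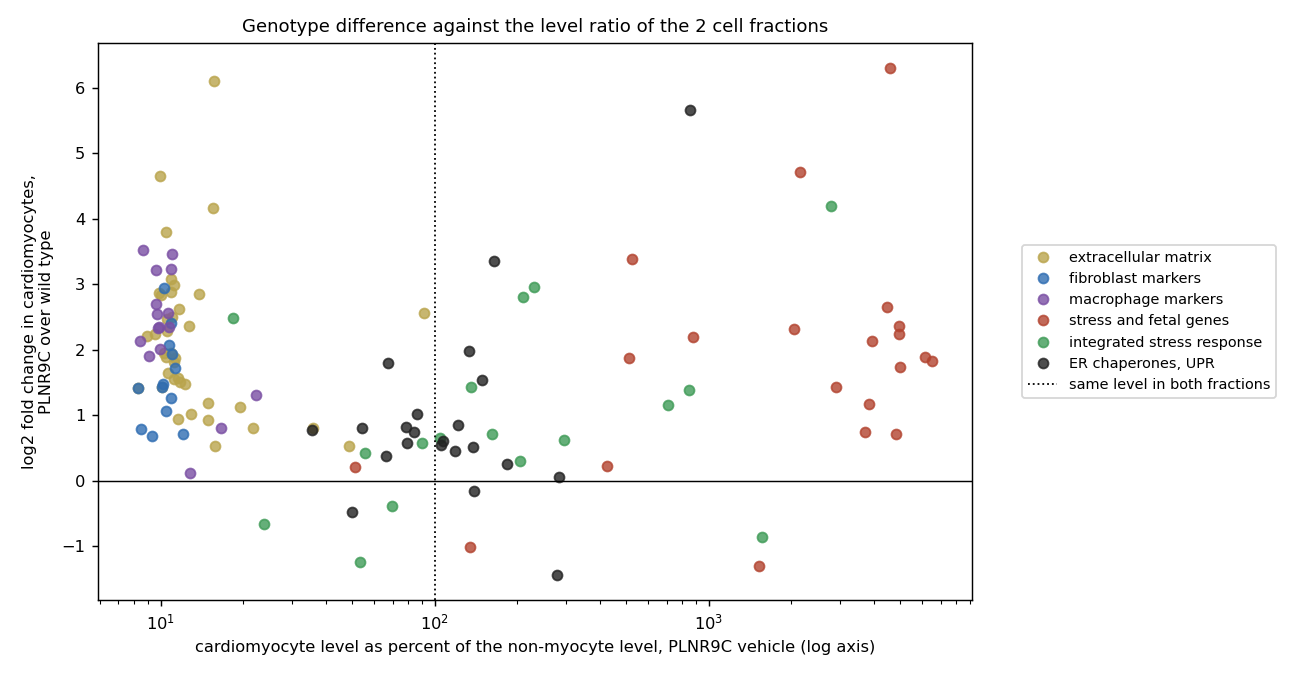
Log2 fold change of PLNR9C over wild type in vehicle cardiomyocytes (vertical) against the level in PLNR9C cardiomyocytes as a percent of that in PLNR9C non-myocytes (horizontal, log axis) for 6 gene lists. Fibroblast markers sit between 8.22% and 12%, most extracellular matrix genes close to them, and the stress and fetal genes that rose all to the right of the dotted line at equal level.

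Extracellular matrix genes rose in number, 32 of 39 with none lower (median log2 1.95). They are made mainly by fibroblasts, and their summed level was 14.3% of the non-myocyte level in PLNR9C and 11.7% in wild type. Col1a1, a chain of fibrillar collagen I, had 306, 183 and 272 CPM in PLNR9C and 39.2, 38.5 and 25.4 CPM in wild type cardiomyocytes (log2 2.88 ± 0.38), while non-myocytes averaged 3033 and 922 CPM. Its PLNR9C cardiomyocyte level was 10.9% of the non-myocyte level, within the range of the fibroblast markers. Col3a1 stood at 10.9% (log2 3.09 ± 0.44), Postn, a matrix protein of activated fibroblasts, at 11.1% (2.99 ± 0.54) and Timp1, an inhibitor of matrix proteases, at 15.5% (4.17 ± 0.51). None of the 39 matrix genes differed between fractions in their genotype difference, and none of the 32 had a higher mean in PLNR9C cardiomyocytes than in PLNR9C non-myocytes. The exception in level was Thbs4, a thrombospondin of stressed heart, with 34.9, 26.9 and 51.0 CPM in PLNR9C and 5.67, 7.57 and 5.68 CPM in wild type, at 91.5% of the non-myocyte level (log2 2.57 ± 0.23).

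Fibroblast and macrophage markers rose with the matrix: 10 of 13 and 14 of 16, with none lower. Pi16, a fibroblast surface protein, had 41.9, 29.6 and 44.5 CPM in PLNR9C and 5.94, 8.86 and 7 CPM in wild type cardiomyocytes (log2 2.41 ± 0.36), and stood at 10.9% of its non-myocyte level. The fibroblast matrix proteins Mfap5 (2.95 ± 0.41) and Dpt (1.47 ± 0.32) stood at 10.3% and 10.2%. Lyz2, lysozyme of macrophages, had 154, 112 and 125 CPM in PLNR9C and 12.7, 16.2 and 12.6 CPM in wild type (log2 3.24 ± 0.37), at 10.9% of its non-myocyte level, and C1qa (complement, 2.33 ± 0.34) and Ctss (a lysosomal protease, 3.46 ± 0.43) stood at 9.79% and 11%. In the non-myocyte libraries 6 of 13 fibroblast markers rose and 1 fell, and 14 of 16 macrophage markers rose, where 10.3% of all genes tested rose and 8.32% fell. The genotype difference was higher in cardiomyocytes than in non-myocytes for 4 of 13 fibroblast and 2 of 16 macrophage markers, where 4.09% of all genes tested were.

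Over the whole table, 261 of the 2021 genes that rose (12.9%) and 1 of the 1667 that fell (0.06%) had a PLNR9C cardiomyocyte level at or below 12% of the non-myocyte level, as the fibroblast markers did, against 438 of all 14142 genes (3.1%). Up to 22.2%, the highest macrophage marker, the numbers were 420 (20.8%), 16 (0.96%) and 1356 (9.59%). At the other end, 1006 of the genes that rose (49.8%) and 1168 of those that fell (70.1%) had a higher mean in PLNR9C cardiomyocytes than in PLNR9C non-myocytes, against 51.1% of all genes tested. For the wild type means the shares were 34.2% and 84.3%, against 51.9% of all genes tested, and each of these levels is itself part of the genotype difference.

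The summed fibroblast and macrophage marker level was also added to the model as a covariate, an alternative chosen after seeing the data. That level ran from 10.46 to 10.72 (log2 CPM) in PLNR9C and from 9.0 to 9.28 in wild type vehicle libraries, so it follows genotype closely and takes up part of any genotype difference. With it 600 genes rose and 441 fell, 469 and 227 of them shared with the calls above. Fatty acid genes then gave 7 falls, stress and fetal genes 7 rises, chaperones 6, integrated stress response genes 4, folate, serine and proline genes 5, tRNA synthetases 8, amino acid transporters 2, matrix genes 5, macrophage markers 4 and fibroblast markers 1. Calcium handling genes gave 2 falls, ion channels 3 and regulators of mitochondrial genes 1, while the citric acid cycle and nuclear oxidative phosphorylation genes gave none. How much of each group's difference goes with the non-myocyte transcripts cannot be told apart from genotype in these libraries.

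Tgfb2, a growth factor that drives matrix production, had 94.6, 93.4 and 196 CPM in PLNR9C and 9.75, 12.7 and 10.1 CPM in wild type cardiomyocytes (log2 3.56 ± 0.31, adjusted p = 2.31e-05), against means of 24.6 and 20.5 CPM in PLNR9C and wild type non-myocytes. Its level was 679% of the non-myocyte level, and its genotype difference was larger in cardiomyocytes (3.24 ± 0.33, adjusted p = 3.08e-06). In the TGF-beta signalling list, 8 of 24 genes rose (5 without PLNR9C replicate 3) and 1 fell, where 14.3% and 11.8% of all genes tested did. Tgfb3 rose by 1.31 ± 0.21 at 50.3% of the non-myocyte level, and Ltbp2, a latent TGF-beta binding protein, by 3.40 ± 0.74 at 10.4%. Ctgf, a target of this pathway, had 587, 620 and 1194 CPM in PLNR9C and 268, 256 and 164 CPM in wild type (log2 1.80 ± 0.45), and its call was lost without PLNR9C replicate 3 (adjusted p = 0.0573) or wild type replicate 3 (0.0639).

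Among receptors and transcription factors of heart muscle more genes fell than rose. Of 24 neurohormonal genes 6 fell, 3 rose and 15 were not called (median log2 -0.18). Over all genes tested 11.8% fell and 14.3% rose. Adra1a, an alpha-adrenergic receptor of cardiomyocytes, had 7.98, 8.98 and 7.30 CPM in PLNR9C and 38.2, 36.8 and 42.0 CPM in wild type (log2 -2.27 ± 0.17, adjusted p = 4.48e-06). Adra1b, the related receptor, fell by 1.37 ± 0.24, Pde3a, which breaks down cyclic AMP, by 1.12 ± 0.13 and Agtr1a, the angiotensin receptor, by 1.01 ± 0.21 on the log2 scale, and Edn3, an endothelin, rose by 2.29 ± 0.46. Of 22 cardiac transcription factors 8 fell and 1 rose, none rising without PLNR9C replicate 2. Hopx, a homeodomain regulator of the heart, had 46.8, 104 and 91.5 CPM in PLNR9C and 234, 221 and 216 CPM in wild type (log2 -1.47 ± 0.27), and Foxo3 (-1.65 ± 0.26), Foxo1 (-0.94 ± 0.15) and Mef2a (-0.66 ± 0.12) fell with it.

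Cytoskeletal, redox and growth genes rose in smaller groups, set against 14.3% of all genes tested that rose and 11.8% that fell. Of 20 cytoskeleton and microtubule genes 11 rose and 2 fell (1 without PLNR9C replicate 1). Tubb2a, a beta-tubulin, had 79.4, 86.3 and 145 CPM in PLNR9C and 32.1, 26.9 and 21.5 CPM in wild type (log2 1.95 ± 0.25), and Tuba1c rose by 1.08 ± 0.15. Tubulin genes are alike in sequence and reads may be split among them. Of 20 antioxidant genes 6 rose and 1 fell. The glutathione peroxidase Gpx3 had 536, 376 and 513 CPM in PLNR9C and 123, 130 and 122 CPM in wild type (log2 1.93 ± 0.16), and Gpx1 rose by 1.45 ± 0.12. The autophagy adaptor Sqstm1 rose by 0.89 ± 0.15, and Nfkb2, a subunit of NF-kB, by 1.01 ± 0.09.

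Of 27 cell cycle genes 10 rose and none fell, with 4 rises without wild type replicate 3. For this and the lists below, 14.3% of all genes tested rose and 11.8% fell. Ccnd2, a cyclin of the entry into the cell cycle, had 245, 230 and 246 CPM in PLNR9C and 109, 116 and 99.6 CPM in wild type (log2 1.15 ± 0.12). Its level was 344% of the non-myocyte level. Of 17 p53 target and cell cycle inhibitor genes 5 rose (3 without wild type replicate 2) and 3 fell (1 without PLNR9C replicate 1), among them Plk2, a stress kinase, with 40.6, 46.6 and 95.6 CPM in PLNR9C and 13.3, 14.7 and 13.9 CPM in wild type (log2 2.12 ± 0.36). Of 24 immediate early genes 2 rose (1 without PLNR9C replicate 3) and 1 fell: Myc rose by 2.07 ± 0.43, while Fos, a growth-responsive factor, had 138, 109 and 142 CPM in PLNR9C and 177, 162 and 221 CPM in wild type and was not called (log2 -0.52 ± 0.23, adjusted p = 0.106, but 0.0273 with the 6 vehicle libraries alone). Interferon response genes depended on 1 library, with 9 of 23 higher, and 3 without PLNR9C replicate 3.

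Apart from genes named above (Nppa, Derl3 and, among falls, Pfkfb1, Acsm5 and Kcnv2), the largest rises and falls were in genes of varied function. Ncam1, a neural cell adhesion molecule, had 73.7, 38.3 and 79.0 CPM in PLNR9C and 1.95, 2.32 and 2.08 CPM in wild type cardiomyocytes (log2 4.90 ± 0.29, adjusted p = 1.7e-06), against means of 13.6 and 13.1 CPM in PLNR9C and wild type non-myocytes. Adamts20, a secreted protease, had 16.6, 14.6 and 29.3 CPM in PLNR9C and 0.266, 0.861 and 0.568 CPM in wild type (log2 5.12 ± 0.41). Tmem63c, a membrane channel, rose by 5.13 ± 0.41, and Serpina3h, one of a family of near-identical protease inhibitors whose reads may be shared, by 5.36 ± 0.41. All 4 had higher PLNR9C levels in cardiomyocytes than in non-myocytes, a level that the rise itself lifts. In wild type, Ncam1 was lower in cardiomyocytes than in non-myocytes. Gpnmb, a glycoprotein of macrophages and other cells, rose by 5.66 ± 0.72 at 25.7% of its non-myocyte level, and Cilp, a matrix protein, by 4.65 ± 0.63 at 9.9%.

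In the remaining large rises the size depended on 1 library. Sphk1, which makes a signalling lipid, had 3.14, 3.16 and 56.6 CPM in PLNR9C and 0.886, 0.602 and 0.473 CPM in wild type (log2 4.97 ± 1.27, adjusted p = 0.0156). Ankrd2, a relative of Ankrd1, had 3.22, 1.65 and 29.1 CPM in PLNR9C and 0.355, 0.258 and 0.662 CPM in wild type (log2 4.71 ± 1.07, adjusted p = 0.00784). PLNR9C replicate 3 was far above the other PLNR9C libraries for both. Without that library the log2 fold changes were 2.24 for Sphk1 (adjusted p = 0.0272) and 2.5 for Ankrd2 (adjusted p = 0.00523). Sphk1 lost its call without any 1 of the wild type libraries (adjusted p = 0.0508 to 0.0639) and without a filter on low counts (0.0527). With the 6 vehicle libraries alone neither gene passed (adjusted p = 0.0982 and 0.0792).

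The deepest fall was that of Scd4, a fatty acid desaturase of heart, with 0.339, 0.575 and 0.348 CPM in PLNR9C and 28.5, 17.3 and 10.8 CPM in wild type (log2 -5.43 ± 0.47, adjusted p = 1.81e-05). Acot1, an acyl-CoA thioesterase whose reads may be shared with its near copy Acot2, fell by 3.56 ± 0.29 and Efnb3, an ephrin, by 3.20 ± 0.34 on the log2 scale, Efnb3 with 6.96, 21.6 and 13.8 CPM in PLNR9C and 136, 120 and 134 CPM in wild type. Tmprss13, a membrane protease (-2.98 ± 0.53), and Lgals4, a galectin (-2.72 ± 0.33), fell as well. Mir208b fell by 2.82 ± 0.26, but it lies within Myh7, so which transcript its reads come from is uncertain.

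The same genotype difference was measured in 6 other libraries, the cardiomyocytes of JQ1-treated PLNR9C and wild type mice, which share no library with the vehicle comparison but were fitted in the same model. There 13.6% of genes rose and 12.3% fell, 3662 genes together and 2391 without PLNR9C JQ1 replicate 2. Of the 2021 genes that rose in vehicle cardiomyocytes 1219 (60.3%, and 63.3% of the JQ1 list) also rose under JQ1, and of the 1667 that fell 1134 (68.0%, and 65.3% of the JQ1 list) also fell. None was called in the opposite direction, and 98.3% and 96.4% had the same sign, against 75.9% of all genes tested. No gene had a genotype difference that differed between JQ1 and vehicle (edgeR, 954 at an unadjusted p under 0.05, and 6 called with DESeq2). The number at an unadjusted p under 0.05 was 2243 without PLNR9C JQ1 replicate 1 and 603 without PLNR9C JQ1 replicate 2, and no gene was called in either.

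By group, 28 of 30 fatty acid genes fell and 13 of 21 stress and fetal genes, 8 of 17 integrated stress response genes, 12 of 22 chaperones and 37 of 39 matrix genes rose in the JQ1 pair. Nuclear oxidative phosphorylation genes gave 60 falls of 78. Mthfd2 (2.95, adjusted p = 1.68e-05), Gdf15 (4.90, adjusted p = 3.63e-04) and Nppa (4.98, adjusted p = 8.48e-05) rose on the log2 scale, and Ppargc1a (-0.80, adjusted p = 0.123) was not called. Marker transcripts of fibroblasts and macrophages moved with genotype there too, with a summed log2 CPM of 10.75 to 12.35 in PLNR9C and 9.78 to 10.28 in wild type.

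**Figure D5:**
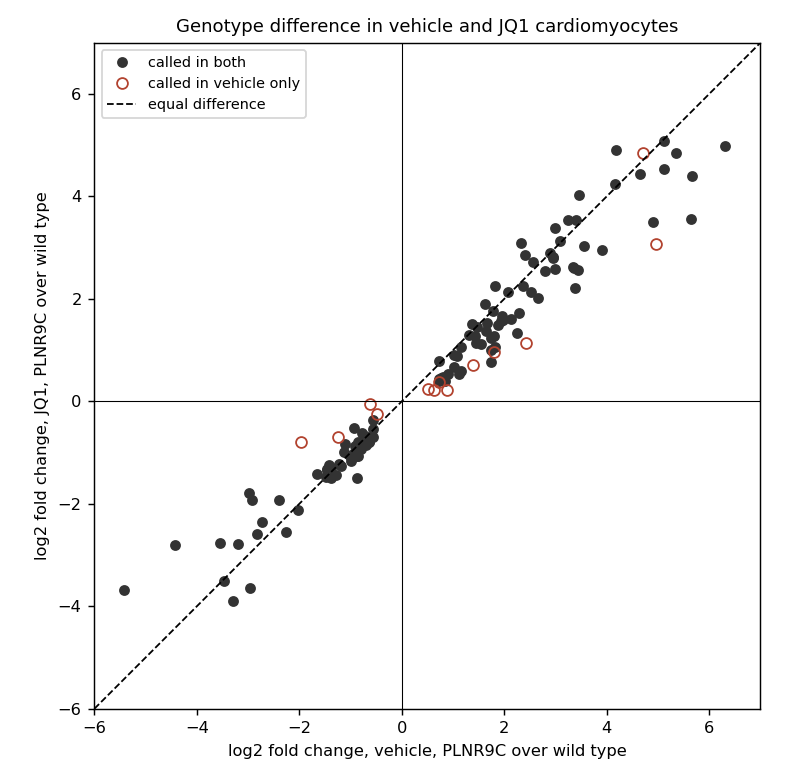
Log2 fold change of PLNR9C over wild type in JQ1-treated cardiomyocytes (vertical) against that in vehicle cardiomyocytes (horizontal) for the 137 named genes called in vehicle. Filled points, 124 genes, were also called under JQ1 and open points, 13 genes, were not; all lie on the same side of 0 in both.

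The ventricle libraries of other mice are given beside these values, without a test between tables. At 20 weeks, where 23.3% of genes rose and 21.4% fell (44.7% in either direction), 1657 of the genes that rose in cardiomyocytes (82.0%, and 50.0% of the ventricle list) and 1414 of those that fell (84.8%, and 42.5%) were called in the same direction, and 0 and 3 in the opposite one. At 8 weeks, where 7.86% rose and 6.5% fell, the numbers were 803 (39.7%) and 653 (39.2%). Fatty acid genes fell in 29 of 30 cases at 20 weeks and 23 of 30 at 8 weeks, and chaperone genes rose in 11 and 17 of 22 cases. Mthfd2 rose by 3.74 at 20 weeks and 3.35 at 8 weeks on the log2 scale, and Ncam1 by 4.29 and 1.29.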

How the data were processed

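RNA-seq of vehicle-treated PLNR9C and wild type cardiomyocytes was analysed (3 libraries each). The authors deposited read counts and RPKM values per gene, and per the submitters' processing notes STAR 2.4.1b and the mouse build GRCm38 (mm10) were used. Neither the counting tool nor its strand setting is stated in the labels. The deposited counts were tested, and the deposited RPKM served only to compare isoforms per length.

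All 12 cardiomyocyte libraries were fitted together with edgeR 4.0.16 (R 4.3.3): filterByExpr by group, TMM scaling, robust quasi-likelihood fit and Benjamini-Hochberg adjustment over 14142 genes, with calls at an adjusted p under 0.05. SE is the size of the log2 fold change over the root of F. A model of 24 cell fraction libraries tested the difference between cardiomyocytes and non-myocytes. Non-myocyte CPM and levels as a percent of the non-myocyte level use the scale of that model. Printed cardiomyocyte CPM use the scale of the 12 cardiomyocyte libraries, so their ratio to non-myocyte CPM differs from the percentages. On simulated counts of 13924 genes, 100 were changed 2-fold and 100 changed 4-fold. Of these 62% and 94% were recovered, and 12 unchanged genes were called. Far fewer genes changed there than were called in the data, so these shares need not hold for the data. Vehicle libraries held 10249780 to 12520846 reads in genes.

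Named genes were the 10 largest rises and falls (at least 10 CPM, no overlap), up to 6 called members per list, a fixed list of well-known heart genes, and members that were not called. Members and lists were chosen with earlier results of these data known. Alternatives included DESeq2 1.42.0. A few genes that the rule names are not reported here.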

Additional observations from a re-analysis of the deposited data

Results flagged for a closer look

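Among all genes, 48 that rose in vehicle cardiomyocytes fell in vehicle non-myocytes, and 50 that fell in cardiomyocytes rose in non-myocytes. Of the genes singled out by name, 5 were among them, each with a difference between fractions that passed the edgeR quasi-likelihood test. Groups of 3 libraries are too small for a test of single outlying libraries. Atf5, a stress response factor, rose by 1.43 on the log2 scale in cardiomyocytes and averaged 69.9 CPM in PLNR9C and 99.6 CPM in wild type non-myocytes, a difference between fractions of 1.89 ± 0.20 (adjusted p = 5.32e-06). Trib3, a pseudokinase of the same response, gave 3.64 ± 0.34 (adjusted p = 1.07e-06), with 6.12 CPM in PLNR9C and 11.3 CPM in wild type non-myocytes. Ern1, a sensor of unfolded proteins, gave -0.92 ± 0.17 (adjusted p = 0.00133), with 36.3 CPM in PLNR9C and 27.6 CPM in wild type non-myocytes, and its cardiomyocyte call was lost when any 1 of 5 libraries was left out.

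Acta2, smooth muscle actin, had 329, 369 and 463 CPM in PLNR9C and 107, 108 and 103 CPM in wild type cardiomyocytes, and averaged 98.7 CPM in PLNR9C and 186 CPM in wild type non-myocytes. Its difference between fractions was 2.73 ± 0.31 (adjusted p = 1.06e-05), and its reads may be shared with the other actins. Cspg4, a pericyte proteoglycan, had 82.5, 71.1 and 145 CPM in PLNR9C and 23.7, 29.5 and 41.4 CPM in wild type cardiomyocytes, and averaged 63.0 CPM in PLNR9C and 125 CPM in wild type non-myocytes. Its difference between fractions was 2.60 ± 0.35 (adjusted p = 9.86e-05).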

How the results depend on the processing

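With 3 pools per genotype and a summed fibroblast and macrophage level that follows genotype, small changes and changes of genes shared with non-myocytes are the least certain. The 3688 genes called in vehicle cardiomyocytes became 3693 with median-of-ratios size factors, 3347 without a filter on low counts, 4011 with DESeq2 and 4112 with the 6 vehicle libraries alone. With the markers of 5 cell types as a covariate 3370 genes were called, but many were other genes. Only 1510 of the 2021 rises and 1084 of the 1667 falls were shared. With the fibroblast and macrophage covariate 1041 genes were called. Leaving out 1 library gave 2495 (wild type replicate 3) to 3301 (PLNR9C replicate 2). In the JQ1 pair leaving out 1 library gave 2391 to 4887 of 3662, and for the difference between fractions 916 to 1334 of 1318. No gene differed in its genotype effect between JQ1 and vehicle in any edgeR setting, and DESeq2 gave 6. The cause of these shifts was not tested. Of 137 named genes called, 129 passed in every setting that left out 1 library or kept all libraries with no covariate. With the fibroblast and macrophage covariate 66 of the 137 lost their call, and with the covariate of 5 cell types 7 did.

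With the replicate number as a block, 3545 genes were called in the vehicle pair, 3439 in the JQ1 pair, 1373 for the difference between fractions and 0 for JQ1 against vehicle. Same-numbered vehicle libraries had correlations of 0.07, -0.06 and -0.07 in their deviations from the group means, so the numbers are not taken to pair the samples.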
